A study of Mus musculus with 7 samples.

Results

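The SoxB genes are the branch of the Sox transcription factor family closest to Sox2. They are described here through 5 members: the SoxB1 genes Sox1, Sox2 and Sox3 and the SoxB2 genes Sox14 and Sox21. They were taken by name from a table of 30487 genes, and all 5 were present. The table covers 7 bulk RNA-seq libraries, made with a stranded mRNA kit, from 1 mouse embryonic stem cell line, Bry-GFP, during a stepwise differentiation. Day 0 cells (2 libraries) had been kept on mouse embryonic feeder cells in medium with 15% serum and LIF at 1000 U/mL. Day 2 cells (2 libraries) came from embryoid bodies, aggregates that had formed over 48 h in serum-free suspension at 75000 cells per mL after the feeders were removed. Day 4 cells (2 libraries) had then spent 48 h in a mix meant to induce primitive streak, which held 150 ng/mL of the BMP inhibitor Noggin, 25 ng/mL of Wnt3a and 9 ng/mL of Activin A. The single day 6 library followed a further 48 h with bFGF at 10 ng/mL and without the earlier factors. Replicates are called biological in the labels, with no statement of separate cultures, so p-values measure the spread between these libraries.

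Sox proteins bind DNA through a conserved domain, the HMG box, and work beside partner factors, among them POU proteins such as Oct4 (Pou5f1) in pluripotent cells. SoxB1 proteins act mostly as activators: Sox2 is a core pluripotency factor, and Sox1, Sox2 and Sox3 together mark and maintain neural progenitors. SoxB2 proteins act mostly as repressors. Sox21 is found in neural progenitors and has been tied to their exit towards neurons, and Sox14 marks sets of differentiated interneurons.

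The kinship of the members shows in their coding sequence, and it bears on how far reads can be told apart. The 60 coding bases below lie in the HMG box and are the stretch of Sox2 that the other members share most closely. Each is the coding strand of GRCm38, 5′ to 3′, and capitals mark bases that differ from Sox2.
Sox2: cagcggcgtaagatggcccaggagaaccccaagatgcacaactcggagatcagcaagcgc
Sox1: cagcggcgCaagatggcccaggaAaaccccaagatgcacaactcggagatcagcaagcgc
Sox3: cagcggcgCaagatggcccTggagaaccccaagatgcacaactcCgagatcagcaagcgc
Sox21: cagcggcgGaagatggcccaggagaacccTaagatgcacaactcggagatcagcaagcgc
Sox14: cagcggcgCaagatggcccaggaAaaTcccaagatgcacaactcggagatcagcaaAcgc
The stretch is at chr3:34650584-34650643 (plus strand) in Sox2, chr8:12396553-12396612 (plus) in Sox1, chrX:60892900-60892959 (minus) in Sox3, chr14:118235513-118235572 (minus) in Sox21 and chr9:99875562-99875621 (minus) in Sox14. Sox1 and Sox21 each differ from Sox2 at 2 of the 60 bases, Sox3 at 3 and Sox14 at 4. Of these differences, 1 in Sox3 was not at the third base of a codon. Over whole transcripts the longest run of identical bases was 45, between Sox1 and Sox3, and that of the other pairs was 19 to 38. Neither the read length nor the aligner was given in the sources used here, and reads confined to the shared stretch may not have been assigned with certainty.

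All 5 genes are protein-coding and have 1 exon in their main GENCODE M21 transcript. Sox1 lies on chromosome 8 (12395295 to 12400126, plus strand), Sox2 on chromosome 3 (34650405 to 34652461, plus), Sox3 on chromosome X (60891366 to 60893430, minus), Sox14 on chromosome 9 (99874106 to 99876170, minus) and Sox21 on chromosome 14 (118233232 to 118237030, minus). Sox2 lies wholly inside the longer transcript Sox2ot on the same strand. Sox2ot was listed at 0 in all 7 libraries, and how reads in the shared stretch were assigned was not tested. The lincRNA Gm4675 overlaps Sox21 on the opposite strand, and nothing on strand in the counting was given in the sources used here.

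Levels are given as log2 of 1 plus scaled reads, obtained from the deposited natural log values, and ± is the SD over n = 2 libraries. Rough depth was 2700000 to 5610000 reads per library, and the level that 3 reads would give was 1.45 to 2.30, below which differences cannot be read. The labelled cell type was checked against markers: Pou5f1, Nanog and 10 other pluripotency genes had a summed level of 13.59 and 13.47 (day 0), 11.98 and 11.99 (day 4) and 9.83 (day 6). Day 0 libraries also held RNA of fibroblast markers. The 12 fibroblast markers summed to 14.37 and 14.58 (day 0), 10.25 and 9.61 (day 2), 8.68 and 8.58 (day 4) and 8.82 (day 6), and 12 of 12 fell from day 0 to day 2. Over all tested genes 6.20% were called lower in that step. The labels do not place the day 0 RNA extraction before or after feeder removal. What feeder RNA contributed to the day 0 levels of SoxB genes was not tested.

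Sox2 was the 1 SoxB gene abundant at the start. It stood at 9.64 and 9.21 (day 0), 9.68 and 9.56 (day 2), 9.39 and 9.45 (day 4) and 10.32 (day 6). The means were 9.42 ± 0.30 on day 0 and 9.42 ± 0.04 on day 4. The day 0 libraries overlapped those of days 2 and 4, both day 2 libraries lay above both of day 4, and day 6 lay above all of them. Sox2 was above 93.4% of tested genes in every library and reached 97.8% on day 6. Pluripotency markers fell over the same days, 10 of 12 by day 4 and 12 of 12 by day 6 against day 0. Over all tested genes 10.4% and 13.2% were called lower in these comparisons. The change of Sox2 was 0.19 (95% interval -0.19 to 0.58) from day 0 to day 2, -0.20 (-0.58 to 0.18) from day 2 to day 4 and -0.01 (-0.39 to 0.37) from day 0 to day 4. None of these passed limma's test (adjusted p = 0.506, 0.525 and 1), and the intervals leave room for changes of the size they span. From day 4 to day 6 the change was 0.90 (SE 0.20, adjusted p = 0.0549), just short of the threshold of 0.05, and from day 0 to day 6 Sox2 rose by 0.89, or 1.86-fold (SE 0.20, adjusted p = 0.0176). That call rests on the lone day 6 library. It was lost without day 0 replicate 2 (log2 0.68, adjusted p = 0.0613) and without any 1 library of day 2 or 4 (0.0515 to 0.0896). With all 7 libraries it was also lost without trend and robust moderation (adjusted p = 0.0644), and it was lost with only the libraries of days 0 and 6 (0.183).

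**Figure D1:**
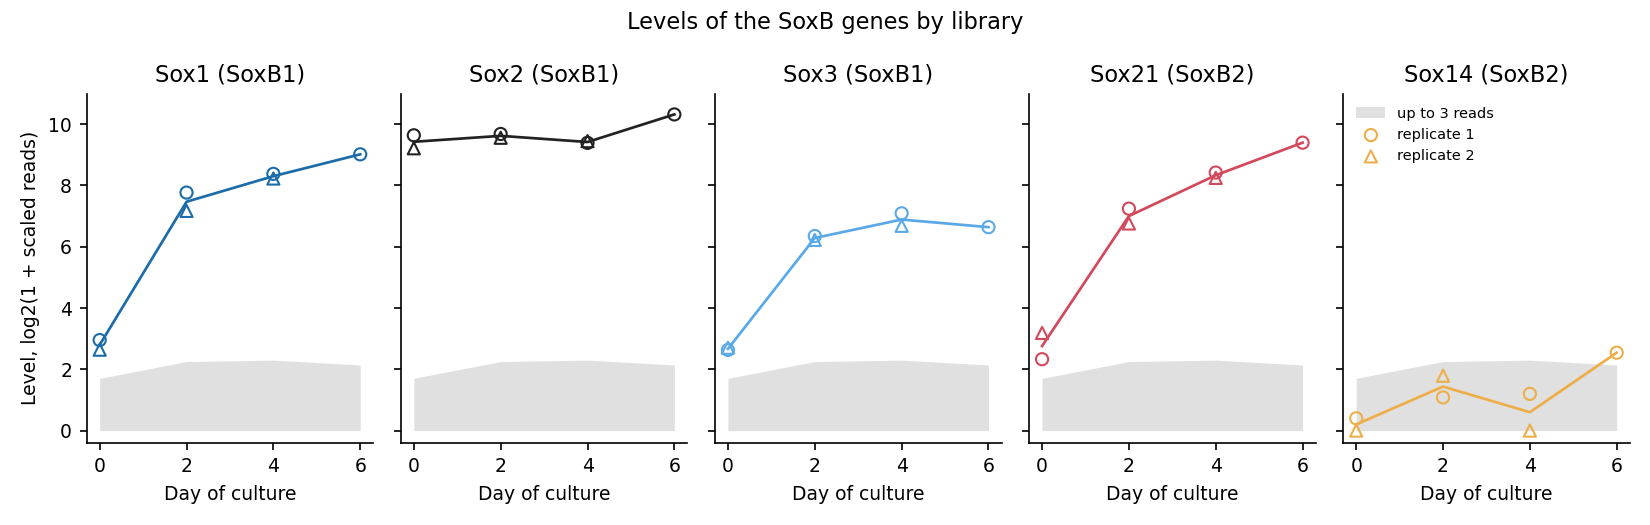
Levels of the 5 SoxB genes (log2 of 1 plus scaled reads) by day of culture, each symbol a library, lines through the mean of a day, and grey the level that 3 reads give in the shallower library of a day. Sox2 stays between 9.21 and 10.32, Sox1, Sox3 and Sox21 leave levels of 2.33 to 3.19 after day 0, and Sox14 stays in the grey area before day 6.

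Sox1, a marker of the early neural plate, was close to the limit of detection on day 0, at 2.95 and 2.64. It stood at 7.77 and 7.17 (day 2), 8.38 and 8.23 (day 4) and 9.02 (day 6). The means were 2.80 ± 0.22 on day 0 and 7.47 ± 0.42 on day 2. Its days did not overlap, and each was above the one before. Relative to the other genes of a library, Sox1 went from above 40.1% and 42.3% of tested genes on day 0 to above 92.2% on day 6. The rise to day 2 was 25.5-fold (log2 4.67, SE 0.26, adjusted p = 0.000589), the 8th largest increase of 21813 genes. The later steps of 0.83 (day 4 against day 2, adjusted p = 0.131) and 0.71 (day 6 against day 4, adjusted p = 0.226) did not pass. In bulk RNA, more cells with a transcript and more transcript per cell cannot be told apart.

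Sox3, the X-linked SoxB1 gene of epiblast and neural progenitors, was at 2.63 and 2.70 (day 0), values at which the steps of repeated low values give 8 and 7 reads. It reached 6.35 and 6.22 (day 2), 7.09 and 6.68 (day 4) and 6.64 (day 6). The day 0 libraries lay far below the rest, at means of 2.67 ± 0.05 on day 0 and 6.29 ± 0.09 on day 2, and the day 6 value lay below both libraries of day 4. Sox3 rose 12.3-fold by day 2 (log2 3.62, SE 0.26, adjusted p = 0.000939). The step from day 2 to day 4 was 0.60 (adjusted p = 0.249) and that from day 4 to day 6 was -0.25 (adjusted p = 0.707), and neither passed. Sox3 thus had its highest mean on day 4 on the deposited levels, with no called step after day 2.

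Sox21, the SoxB2 gene of neural progenitors, also left a day 0 level near the limit of detection. It was at 2.33 and 3.19 (day 0), 7.24 and 6.76 (day 2), 8.42 and 8.25 (day 4) and 9.40 (day 6). The means were 2.76 ± 0.61 on day 0 and 8.33 ± 0.12 on day 4. The days did not overlap, and each was above the one before. Sox21 rose 18.9-fold by day 2 (log2 4.24, SE 0.33, adjusted p = 0.00125). The next step was 1.33 (SE 0.33, adjusted p = 0.0813) and the last 1.06 (SE 0.40, adjusted p = 0.163). Neither passed over all genes, but the step to day 4 passed when genes under a mean of 10 scaled reads were left out (adjusted p = 0.0289). With only the libraries of days 2 and 4 in the fit, adjusted p was 0.00911 when genes constant over these libraries were dropped and 0.192 when they were kept.

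Sox14, the interneuron gene of the SoxB2 pair, was hardly detected. It was at 0.40 and 0 (day 0), 1.08 and 1.79 (day 2), 1.20 and 0 (day 4) and 2.54 (day 6). The steps of repeated low values put the 6 libraries of days 0, 2 and 4 at 0 to 2 reads, below the level of 3 reads, and the day 6 library just above it (2.14). No fold is given from such values, and no comparison passed (adjusted p = 0.0558 for day 6 against day 0, with 1 library behind day 6). The last of these passed with 10 added before the log (adjusted p = 0.0226) and after GC correction (adjusted p = 0.0263). Of 11 genes of the V2 interneuron lineage, in which Sox14 is also found, 6 were higher on day 6 than on day 0 (median 2.37), among them the progenitor factors Nkx6-1 and Irx3 and Bhlhe22, a helix-loop-helix factor of differentiating neurons.

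Between neighbouring days, members were called in the first 48 h alone; whether the steps differ in size was not tested. From day 0 to day 2, 3 of 5 members rose (Sox1, Sox3 and Sox21) and 0 fell. Over 21813 tested genes 12.0% were called, 5.76% higher and 6.20% lower, and the median change of all tested genes was 0.05. The median change was 3.62 over the SoxB1 genes and 2.74 over the SoxB2 genes, the latter an average of Sox21 and the barely detected Sox14. From day 2 to day 4 limma called 0 of 5 members (2 at an unadjusted p under 0.05), against 3.59% of all genes (1.45% higher, 2.13% lower). From day 4 to day 6 it also called 0 of 5 (3 at an unadjusted p under 0.05), against 4.46% of all genes (1.27% higher, 3.18% lower). Comparisons with day 0 share its 2 libraries. By day 4 the same 3 members stood above day 0, where 21.7% of all genes were called (11.3% higher, 10.4% lower), Sox1 by 5.51, Sox3 by 4.22 and Sox21 by 5.57. By day 6 there were 4, where 26.6% of all genes were called (13.5% higher, 13.2% lower), Sox1 by 6.22, Sox2 by 0.89, Sox3 by 3.97 and Sox21 by 6.64. Over all days the F test called 4 of 5 members, all but Sox14, and 28.6% of all genes. The call of Sox2 (adjusted p = 0.0437) was lost in 9 of 14 alternatives, among them every single left-out library (0.0593 to 0.566) and the fit without trend and robust moderation (0.135).

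The early rises kept their direction with any 1 library left out, at 4.37 to 4.97 for Sox1, 3.55 to 3.68 for Sox3 and 3.81 to 4.67 for Sox21, but the calls did not hold. Which calls were lost also depended on how genes constant over the remaining libraries were treated, a choice changed after the first counts had been seen. With such genes dropped, none of the 3 passed without day 0 replicate 1, day 0 replicate 2 or day 4 replicate 1 (adjusted p = 0.0503 to 0.0579), and Sox21 did not pass without day 2 replicate 1 (adjusted p = 0.0510). With such genes kept, as was done first, none of the 3 passed without either day 2 library (adjusted p = 0.0606 to 0.0685). Then 1 passed without day 0 replicate 1 or either day 4 library, and 2 passed without day 0 replicate 2. All 3 passed without the day 6 library under both treatments. With 10 in place of 1 added before the log, which shrinks changes that start near 0, the rises were 3.54, 2.50 and 3.11 and passed. The day 4 rises of Sox1 and Sox21 against day 0 missed the threshold without day 4 replicate 1 when constant genes were dropped (adjusted p = 0.0502 and 0.0516) and passed when they were kept.

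**Figure D2:**
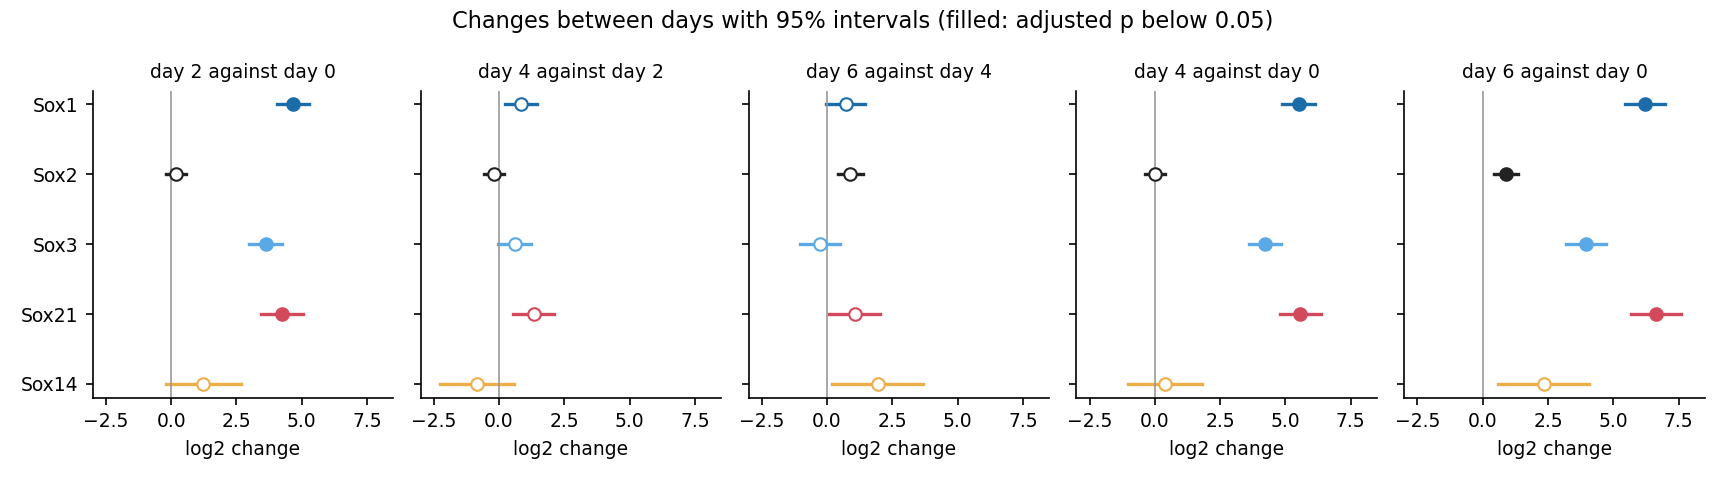
Change in log2 level of each SoxB gene in 5 comparisons, with the point as limma's estimate, the line as its 95% interval, and filled points for an adjusted p below 0.05. Sox1, Sox3 and Sox21 are filled in every comparison with day 0, Sox2 only on day 6, and no point is filled in the steps from day 2 to 4 and from day 4 to 6; the Sox14 estimates rest on 0 to 2 reads before day 6.

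Whether members moved unequally was tested on the difference between their levels within a library, with an exact permutation test of the F statistic over the days. All 630 assignments of the 7 libraries were used, the smallest possible p was 0.00952, and adjustment was over 10 pairs. Sox1 minus Sox2 went from -6.68 and -6.57 (day 0) to -1.91 and -2.39 (day 2), -1.01 and -1.22 (day 4) and -1.30 (day 6) (exact p = 0.0190, adjusted p = 0.0381). Sox2 exceeded Sox21 by 7.31 and 6.03 (day 0) and by 0.92 (day 6) (adjusted p = 0.0381). Sox2 and Sox3 also moved unequally, with Sox2 ahead by 7.01 and 6.51 (day 0), 2.30 and 2.76 (day 4) and 3.68 (day 6) (exact p = 0.00952, adjusted p = 0.0381).

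Among the 3 genes that rose early, both pairs with Sox3 moved unequally on the deposited levels. Sox3 minus Sox21 was 0.30 and -0.48 (day 0), -0.89 and -0.54 (day 2), -1.33 and -1.56 (day 4) and -2.76 (day 6) (exact p = 0.00952, adjusted p = 0.0381). Sox1 minus Sox3 was 0.32 and -0.06 (day 0) and 2.38 (day 6) (adjusted p = 0.0381). Sox1 minus Sox21 was 0.62 and -0.55 (day 0), 0.52 and 0.41 (day 2), -0.04 and -0.02 (day 4) and -0.38 (day 6). From day 2 on it was lower on each later day with replicates close together, while the day 0 values, from a few reads, spread over both signs. Over all 4 days no unequal movement was detected (exact p = 0.562), and the later days were not tested alone. Thus 5 of the 6 pairs without Sox14 passed, and Sox1 with Sox21 did not. Sox2 with Sox21 and Sox3 with Sox21, which also join a SoxB1 with a SoxB2 gene, passed. Of the 4 pairs with Sox14, 2 passed, but they rest on its few reads. Leaving out 1 library says little here, since the smallest possible p is then 0.0222, or 0.0667 without day 6, before adjustment over 10 pairs. On levels after GC correction, added after seeing the data, only Sox1 with Sox2 and Sox2 with Sox21 passed (adjusted p = 0.0476 for each). Sox2 with Sox3 (adjusted p = 0.109), Sox1 with Sox3 (0.131) and Sox3 with Sox21 (0.0794) did not. Sox2 was then ahead of Sox3 by 2.91 and 3.07 (day 4) and 2.80 (day 6), with no widening after day 4. Sox1 minus Sox2 was -1.27 and -1.35 (day 4) and -0.81 (day 6) after correction. That gap was narrower on day 6 than on day 4, where the deposited levels had it wider.

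**Figure D3:**
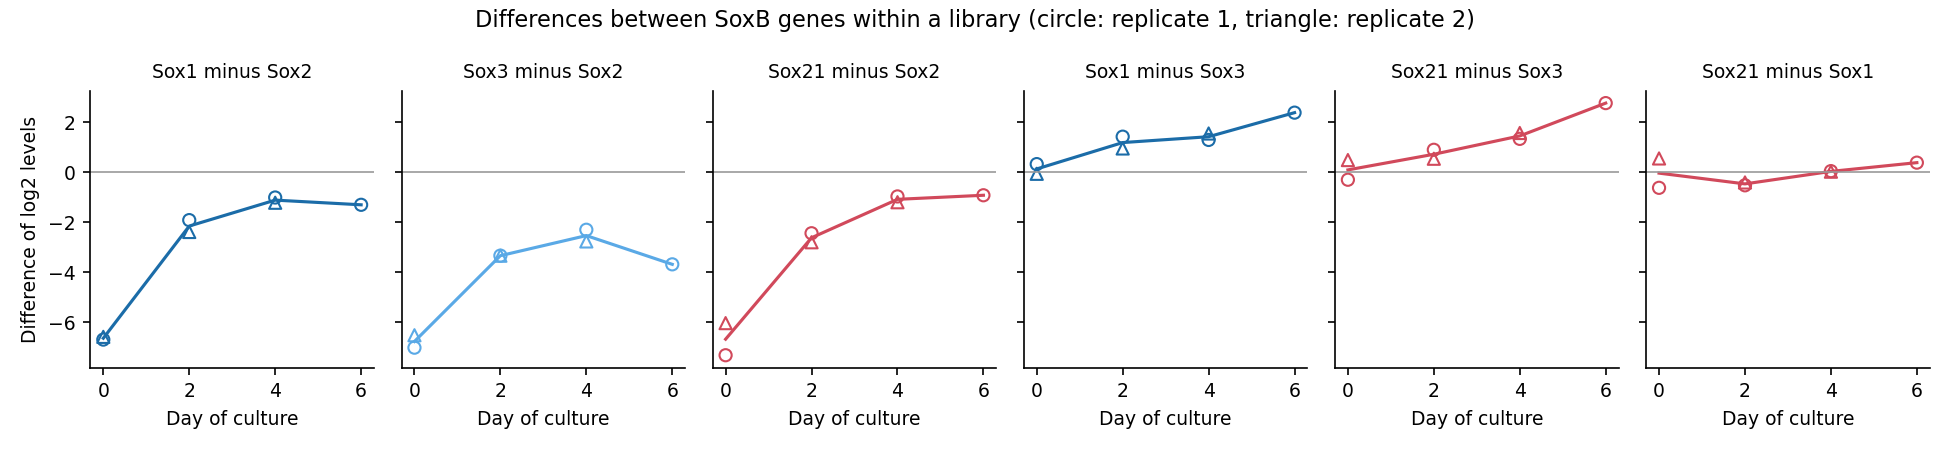
Difference of the log2 levels of 2 SoxB genes within each library, by day, lines joining the means of the days. Sox1, Sox3 and Sox21 start 6.03 to 7.31 below Sox2 and come nearer to it by day 2, the gaps of Sox1 and Sox21 over Sox3 are widest on day 6, and Sox21 minus Sox1 lies on both sides of 0; after GC correction the pairs with Sox3 did not pass.

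To compare levels between genes, scaled reads were divided by the length of the main GENCODE transcript, 4832 bases for Sox1, 2057 for Sox2, 2065 for Sox3 and Sox14 and 3799 for Sox21. On this scale Sox2 was 98.7% and 98.0% of the SoxB sum on day 0, 76.3% and 79.4% (day 2), 59.1% and 64.0% (day 4) and 65.0% (day 6). Sox21 went from 0.271% and 0.726% to 7.58% and 6.14%, then 16.3% and 15.1%, and 18.6% (day 6). Sox1 went from 0.357% and 0.368% (day 0) to 8.59% and 6.43% (day 2), 12.5% and 11.7% (day 4) and 11.2% (day 6). Sox3 went from 0.643% and 0.909% to 7.47% and 7.75%, then 11.9% and 9.30%, and 5.01% (day 6), on levels not corrected for GC content. Sox14 was at most 0.258% in any library. Sox2 thus remained the most abundant SoxB gene per length in all 7 libraries. On days 4 and 6 Sox21 came next, and the SoxB1 genes together were 81.2% of the sum on day 6. With RefSeq lengths, in which Sox2 is longer (2467) and Sox1 shorter (4037), the Sox2 share on day 6 was 59.3%. The deposited values have the equal sorted columns of quantile normalization, and these shares describe the table and not molecules per cell.

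**Figure D4:**
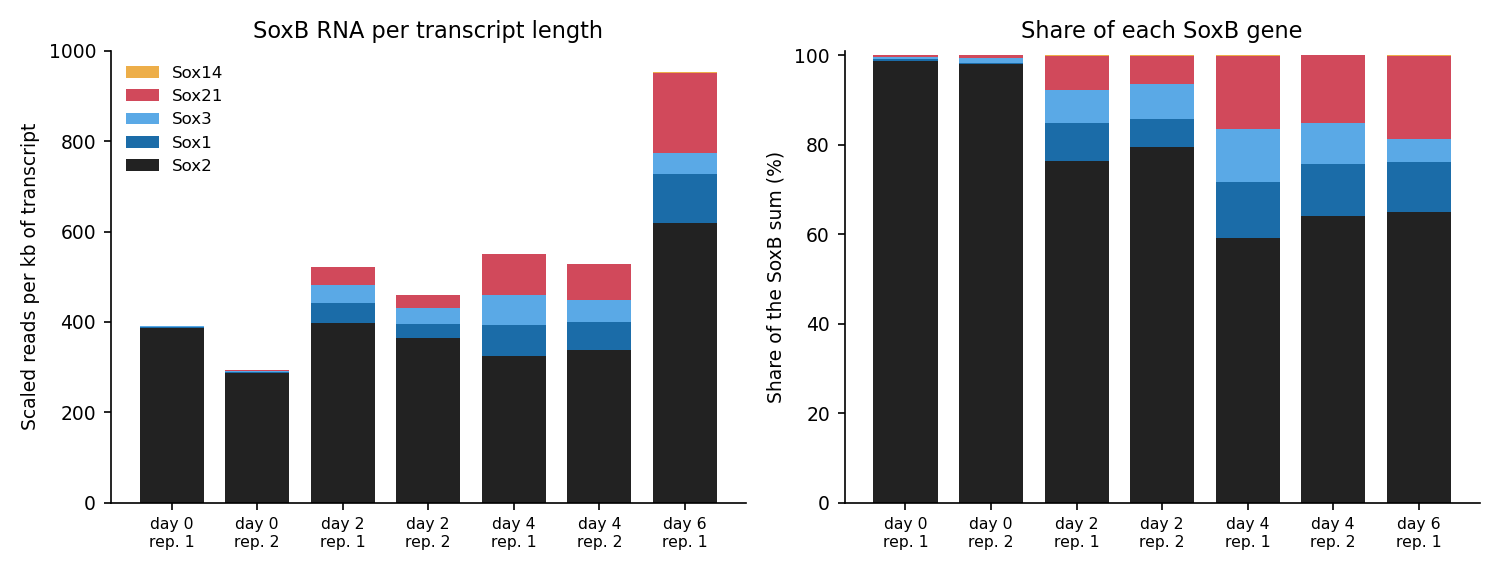
Left, scaled reads per kb of transcript summed over the SoxB genes in each library, and right, the share of each gene in that sum. Sox2 holds 98.7% and 98.0% (day 0) and 65.0% (day 6), and the Sox21 share reaches 18.6%, all on levels not corrected for GC content.

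Changes in the last step moved with GC content over all genes. The transcripts of Sox3 (66.4% G and C), Sox21 (58.3%), Sox1 (56.9%) and Sox14 (55.8%) are rich in these bases, against a median of 49.0% over tested genes and 50.5% for Sox2. From day 4 to day 6 the median change fell with GC content over all genes with a mean of at least 10 scaled reads, from 0.52 in the 777 genes below 40% to -1.11 in the 388 genes at 60% or more. From day 0 to day 2 the same medians were 0.26 and 0.01, and from day 2 to day 4 they ran the other way, -0.28 and 0.35. On levels corrected for GC content, an alternative chosen after seeing the data, the day 6 step of Sox3 was 1.10 (adjusted p = 0.138) in place of -0.25. That of Sox1 was then 1.41 (adjusted p = 0.0245), that of Sox21 1.90 (adjusted p = 0.0164) and that of Sox2 0.91 (adjusted p = 0.0319), so 3 of 5 members passed in place of 0, where 4.40% of all genes were called after correction (0.990% higher). The day 2 to day 4 step of Sox3 was 0.15 after correction (adjusted p = 0.815) in place of 0.60, so its highest level came on day 6 and not on day 4. The direction of Sox3 after day 4 therefore depends on this correction, which reaches few genes at its GC content, above that of 99.7% of genes. The early rises were 4.79, 3.63 and 4.38 for Sox1, Sox3 and Sox21 after correction and passed.

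**Figure D5:**
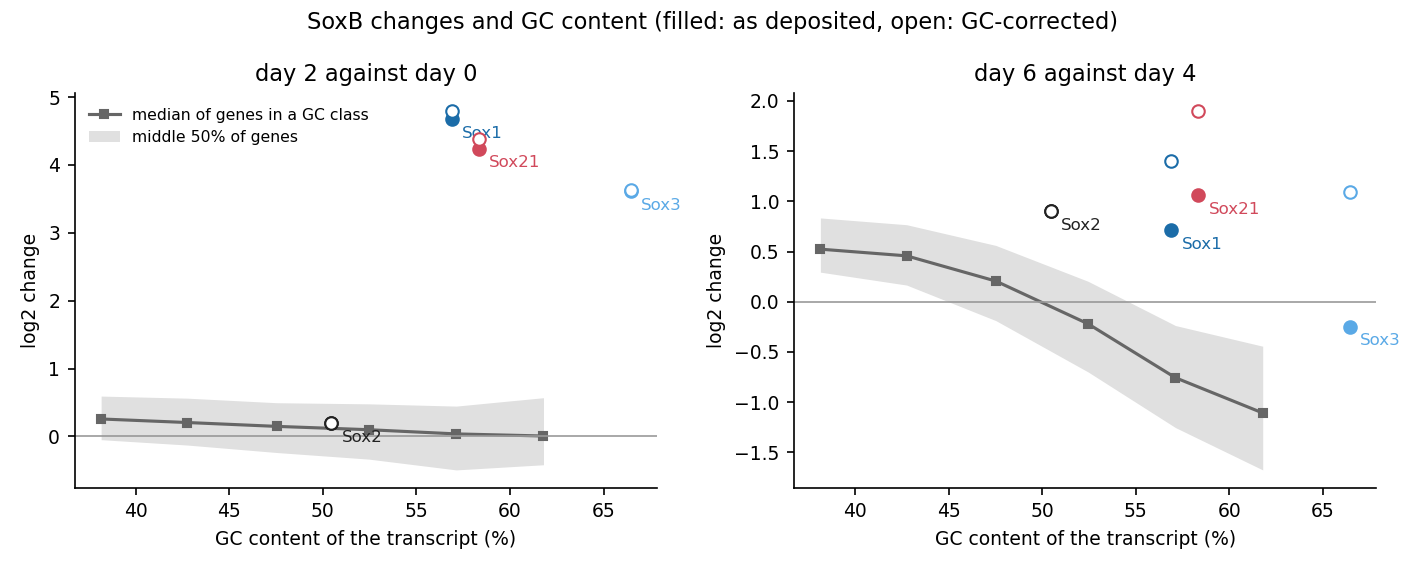
Change in log2 level against the GC content of the transcript for day 2 against day 0 and day 6 against day 4, with the grey line as the median and the band as the middle 50% of genes in GC classes, and SoxB genes as deposited (filled) and corrected (open). The 2 kinds of point nearly coincide on the left, while on the right Sox3 moves from -0.25 to 1.10.

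Of 11 listed partner factors of SoxB proteins, 5 rose and 2 fell from day 0 to day 2 (median 1.20). The rises were the POU factors Pou3f1, Pou3f3 and Pou3f4, the eye and neural tube factor Pax6 and the chromatin remodeller Chd7. The falls were the pluripotency factors Klf4 and Esrrb. Over all tested genes 5.76% were called higher and 6.20% lower in this step, against 1.27% and 3.18% from day 4 to day 6. The latter step rests on the lone day 6 library. Pou5f1, the partner of Sox2 in stem cells, and Nanog were among the 4 that fell from day 4 to day 6, with 0 rising (median -0.20). Of 10 genes with a described Sox2 site or enhancer, 8 had fallen and 2 had risen by day 6 against day 0 (median -3.21). Over all tested genes 13.5% were called higher and 13.2% lower in this comparison. Its median change ran from 0.48 in genes below 40% GC content to -0.75 at 60% or more. Spp1, among the 8 that fell, had fallen by 2.88 by day 2, and feeder RNA in its day 0 level was not tested. The pluripotency target Fgf4 fell by 3.30 and Utf1 fell by 4.30. The rises were Nes, the neural progenitor filament with a SoxB-bound enhancer (1.39), and Otx2, an anterior epiblast and neural factor (1.82).

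The neural progenitor list, in which SoxB1 genes are themselves usual members, had 9 of 16 genes up and 0 down from day 0 to day 2 (median 1.38). It had 5 up and 0 down from day 2 to day 4 (median 1.33). From day 4 to day 6 it had 0 up and 1 down, Zic2 (median 0.55). Over all tested genes 5.76%, 1.45% and 1.27% were called higher in these steps, and 6.20%, 2.13% and 3.18% lower. Of the neuron differentiation genes 4 of 16 rose and 1 fell by day 2 (median 1.06), 8 rose from day 2 to day 4 (median 2.54) and 3 from day 4 to day 6 (median 1.69). Among the 4 early rises, Isl1 and Neurod4 were listed at 0 in both day 0 libraries. Isl1 was at 1.86 and 2.25 on day 2, not above the level of 3 reads (2.12 and 2.25), and Neurod4 was at 2.73 and 3.18. Dcx, a microtubule protein of young neurons, was at 2.16 and 1.53 (day 0), 9.25 and 7.09 (day 4) and 10.31 (day 6). Neurog2, a proneural factor, was listed at 0 in all day 0 and day 2 libraries and stood at 3.45 and 3.65 (day 4) and 5.39 (day 6). For day 4 against day 0, 13 of the 16 were called higher, against 11.3% of all genes, and Stmn2, Tubb3 and Neurod1 were not. Stmn2, the gene that fell by day 2, was at 9.92 and 9.63 (day 0) and 9.57 (day 6). Tubb3 was at 7.29 and 7.44 (day 0) and 8.02 (day 6), and Neurod1 at 5.90 and 5.64 (day 0) and 6.01 (day 6). Day 6 counts have no replicate check. From day 2 to day 4, 1 of 10 primitive streak and early mesoderm genes rose and 0 fell (median 1.21). Of the definitive endoderm genes 3 of 8 rose and 0 fell in that step (median 2.09). T, a streak gene that was not called, went from 3.18 and 5.80 (day 2) to 9.02 and 8.67 (day 4). Its change was 4.35 (limma adjusted p = 0.0638). Among trophoblast genes, a lineage in which Sox2 also acts, 1 of 8 rose and 1 fell from day 2 to day 4 (median 0.11).

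Genes outside the family whose levels followed each member most closely were ranked by Pearson correlation over the 7 libraries among 11074 others. These values describe libraries that share depth and day, and carry no p. Sox1 was followed by Scd1, a fatty acid desaturase (r = 0.998), and Zswim5 (0.997). Sox3 was followed by Snx29 (0.999) and Greb1 (0.998), and Sox21 by Sp8, a zinc finger factor of the forebrain and limb (0.998), and Ubqln2 (0.997). Sox2, with a range of only 1.10, was followed by Mbip (0.969) and Entpd5 (0.968). Among the genes most like Sox1, Sox3 came at rank 59 (r = 0.986) and Sox21 at rank 63 (0.986), while Sox2 came at rank 3959 (0.460).

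RefSeq promoter windows (GRCm38.p6, 250 bases before to 50 after the start) were found for 4 members. The POU octamer ATGCAAAT, on either strand, was searched for after the Sox1 sequence had been seen. It was in the window of Sox1, in none of the other members' windows found, and in 1.74% of all 32851 windows. Its site is shown with the octamer in capitals, at chr8:12395527-12395554 (plus strand), starting 18 bases after the RefSeq start. The GENCODE transcript of Sox1 starts earlier, at 12395295, so the site lies inside that transcript. Any link of the site to the rise of Sox1 was not tested.
Sox1 octamer: ccagcgcgccATGCAAATcaccgccgcc
The Sox motifs CATTGT and AACAAT, which can overlap in part, were in 0 of the 4 windows and in 12.6% and 10.7% of all windows. A match of letters is a description and not a bound site.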

How the data were processed

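RNA was measured in 7 libraries, grouped by the day in their titles. The authors deposited 1 table of 30590 rows, all 7 columns mapped (0 unmapped). Its natural log values of 1 plus scaled reads were inferred as such from the deposited values: the ratio of the 8-read to the doubled 4-read step was 0.947 to 1.04 with a natural log and 0.830 to 0.914 with base 2. Sorted columns agreed within 0.01 over the top 9896 ranks, as quantile normalization gives. Per the submitters' processing notes, the genome build was GRCm38. No aligner, counter or annotation was given in the sources used here.

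Values were divided by the natural log of 2. After removal of 103 foreign sequences and 8674 genes at 0 throughout, 21813 genes were tested with limma-trend, robust (limma 3.58.1, R 4.3.3), in a single fit of all libraries with a mean for each day, which left 3 residual degrees of freedom. Adjustment was by Benjamini-Hochberg over all genes, at a threshold of 0.05. The comparisons with day 6 assume that its lone library varies like the others. Code was tested on simulated data. Alternatives were the pseudocount, low-level filters, median centring, the variance model, a replicate block, GC correction (21306 genes had a value) and left-out libraries. Fits without some libraries first kept genes constant over the rest, and after those counts had been seen they were changed to drop such genes, so both versions are given. The fit of all 7 libraries has no such genes. Gene lists were counted without a set test, and the shares of all genes called in each comparison are those given with the members. The genes named are the members, list genes past the threshold and the 5 genes most correlated with each member. Members and lists were chosen with earlier results of these data known.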

Additional observations from a re-analysis of the deposited data

How the results depend on the processing

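Of 423 values of single SoxB genes under the alternatives with constant genes dropped, 365 kept their direction and side of the threshold, 40 lost and 12 gained a call, and 6 changed sign, all 6 of them changes that had not passed. These were Sox3 for day 6 against day 4 (1.10 with GC correction), Sox2 for day 4 against day 0 (0.0029 with GC correction, 0.20 without day 0 replicate 1, 0.02 without day 4 replicate 1, over a range of -0.22 to 0.20) and for day 2 against day 0 (-0.0184 without day 0 replicate 2, in a range up to 0.41), and Sox14 for day 4 against day 0 (-0.20 without day 4 replicate 1, in a range up to 1.00). Of 225 values with constant genes kept, 191 kept direction and side, 30 lost a call and 4 changed sign. The cause was not tested.

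Counts of all genes called were 782 for day 4 against day 2 and 972 for day 6 against day 4. They became 1422 and 2200 with the mean-level filter, 1549 and 2102 with the filter on 2 libraries, where fewer genes were tested, and 335 and 609 without trend and robust moderation, which also gave 1609 in place of 2609 for day 2 against day 0. GC correction, added after seeing the data, gave 1523 for day 4 against day 2. SoxB members called for day 4 against day 2 were 0, and 1 with either filter, with 10 added before the log, with GC correction or with only the libraries of these days. For day 6 against day 4 they were 0, 1 with either filter and 3 with GC correction. DESeq2 was not run because the table holds no counts.

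Fits with fewer libraries depended on the treatment of genes constant over the libraries left, which was changed from keeping to dropping them after the counts had been seen. With only the libraries of the days compared, dropping gave 0 genes for day 6 against day 4 and 0 for day 6 against day 0 in limma (3730 and 8012 at an unadjusted p under 0.05), with 0 members for the latter in place of 4. Keeping gave 87 genes and 1 member for day 2 against day 0, 0 genes for day 4 against day 2 (3743 at an unadjusted p under 0.05), and 1895 genes and 1 member for day 6 against day 0.

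Without 1 library and with constant genes dropped, genes called ranged from 0 to 2871 for day 2 against day 0, 0 to 1092 for day 4 against day 2, 0 to 298 for day 6 against day 4, 163 to 4951 for day 4 against day 0, 2163 to 5377 for day 6 against day 0 and 0 to 4743 for any day. With constant genes kept the ranges were 0 to 2581, 0 to 806, 0 to 817, 1144 to 4737, 2195 to 5265 and 1814 to 4356. Members called ranged from 0 to 3 for day 2 against day 0 under both treatments, from 1 to 3 (dropped) or 3 in each case (kept) for day 4 against day 0, from 3 to 4 for day 6 against day 0 under both, and from 0 to 3 (dropped) or 3 in each case (kept) for any day. The counts of 0 for any day came without either day 0 library or day 4 replicate 1. Of the pairs, 0 were called in each case, from 7, but the smallest possible p was then 0.0222 (0.0667 without day 6) before adjustment, so these counts say nothing about stability. With GC correction 2 pairs were called.

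Replicate differences correlated at -0.06 (days 0 and 2), -0.07 (days 0 and 4) and 0.22 (days 2 and 4) across 11800 genes. Whether a replicate number marks libraries handled together is not stated and was not tested further, and the main fit has no replicate block. With the replicate block the count for day 6 against day 4 was 606, and among members only the F test of Sox2 lost its call (adjusted p = 0.0758). Depth limits Sox14 throughout and the day 0 levels of Sox1, Sox3 and Sox21, which start from a few reads.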

Other observations

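The other Sox genes share the HMG box but belong to other groups. Of 15 listed, 2 rose and 0 fell from day 0 to day 2 (median 0.33): Sox11, a SoxC factor of neural precursors and young neurons, and Sox13, a SoxD factor. From day 2 to day 4 only Sox9, a SoxE factor of cartilage and glial precursors, rose. Over all tested genes 5.76% and 1.45% were called higher in these steps, and 6.20% and 2.13% lower. For day 6 against day 0, with 1 library on day 6, the shares were 13.5% higher and 13.2% lower. By day 6 against day 0, 5 had risen (Sox11, Sox5, Sox6, Sox8 and Sox9) and 1 had fallen, Sox15, which is expressed in stem cells beside Sox2. Sox17, the endoderm factor of the SoxF group, was above day 0 on day 4.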
